A study of Arabidopsis thaliana with 30 samples.

Results

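VSP1 (AT5G24780) and VSP2 (AT5G24770), which encode the vegetative storage proteins of Arabidopsis thaliana, were followed through a 24 h response of leaves to coronatine. They are 2 of the 27655 genes in the deposited expression table and were taken from it by their locus identifiers. Whole leaves of jazD plants in the Col-0 background were sampled 0, 1, 3, 12 and 24 h after spraying with coronatine (5 µM, in water) or with plain water, called mock here. Each treatment and time has 3 libraries, 30 in all. Plants were 26 days old and grew at 20 °C under 16 h of light and 8 h of darkness. Every library, mock libraries included, carries jazD. The labels give the genotype only by that name. As background that the labels do not state, jazD plants lack most of the JAZ repressors of jasmonate signalling. No wild-type library was analysed here, so every difference below is one between jazD leaves. The series describes the experiment as a study of coronatine-induced degreening in jazD.

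Jasmonoyl-isoleucine is the hormone that plants make after wounding or insect attack, and coronatine is a bacterial toxin that mimics it. Either one joins the receptor COI1 to a JAZ protein, the JAZ protein is destroyed, and MYC2 and related transcription factors that it held back become active. VSP1 and VSP2 are long-used markers of this MYC branch, which answers wounding and chewing insects, while defensins such as PDF1.2 mark the ERF branch, which answers necrotrophic fungi. The proteins accumulate in vacuoles as nitrogen reserves. They belong to the haloacid dehalogenase (HAD) class of acid phosphatases, and VSP2 protein is toxic to some insect larvae.

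The genes lie side by side on chromosome 5. In the authors' TAIR10 coordinates VSP2 spans bases 8500476 to 8502224 and VSP1 spans bases 8507590 to 8508957, both on the reverse strand. The gap of 5365 bases between them holds a transposable element gene, AT5G24775, on the forward strand. In the RefSeq annotation of TAIR10.1 the transcript with the longest coding sequence has 3 exons in each gene, with a coding length of 813 bases in VSP1 and 798 bases in VSP2. That annotation starts the longer VSP1 transcript at base 8509201 and a second one at base 8508957, and both VSP2 transcripts at base 8502224. The coding sequences were identical at 714 of 798 aligned bases (89.5%). Over whole transcripts, 9.51% of the 25-base stretches of VSP1 occurred unchanged in VSP2, 0.394% of the 50-base stretches did, and 0 of 1219 stretches of 100 bases did. Reads that fall in the shared stretches could be split between the copies by the authors' counting, so the sum of both genes is given as well, though it too shifts with such a split because the transcripts differ in length.

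The sequences upstream of the genes are shown because both genes responded to coronatine and carry similar promoters. The lines below give the 250 bases before the RefSeq gene start on TAIR10.1, 5′ to 3′ on the reverse strand, at chr5:8509202-8509451 for VSP1 and chr5:8502225-8502474 for VSP2. Capitals mark runs of at least 12 bases that occur in both windows.
VSP1: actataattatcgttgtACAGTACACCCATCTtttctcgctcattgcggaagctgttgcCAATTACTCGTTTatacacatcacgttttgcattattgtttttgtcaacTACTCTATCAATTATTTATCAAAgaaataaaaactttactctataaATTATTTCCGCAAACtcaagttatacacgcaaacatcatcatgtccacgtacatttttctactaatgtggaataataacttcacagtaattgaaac
VSP2: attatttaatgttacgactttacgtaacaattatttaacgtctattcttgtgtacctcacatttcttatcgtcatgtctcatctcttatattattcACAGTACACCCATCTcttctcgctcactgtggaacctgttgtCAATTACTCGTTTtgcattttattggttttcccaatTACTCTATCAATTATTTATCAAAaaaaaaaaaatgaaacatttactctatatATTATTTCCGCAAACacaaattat
The shared runs took up 66 of the 250 bases in each window, in the same order. The best local alignment had 131 identical bases of 146 aligned bases (89.7%), with gaps left out of the count. The MYC factors bind the G-box CACGTG and the related hexamers AACGTG and CACATG, and each was searched on both strands. The VSP1 window held AACGTG once, on the other strand, at 170 to 165 bases before the start, and held neither CACGTG nor CACATG. The VSP2 window held none of the 3. Extending the search to 1000 bases added no match in either gene. Of 27443 gene promoters of 250 bases, 7.54% held AACGTG, 6.49% held CACGTG and 11.1% held CACATG.

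A second window, the 250 genomic bases before the start codon, was searched after these results were seen, because the annotations place the VSP1 start differently. It held AACGTG once in each gene, 225 to 220 bases before the start codon in VSP1 and 228 to 223 bases before it in VSP2. The 30 bases around each match are shown with the motif in capitals, at chr5:8509097-8509126 for VSP1 and chr5:8502055-8502084 for VSP2 on TAIR10.1, reverse strand.
VSP1: tagcacagtctcAACGTGctctaaaaacga
VSP2: gcacacaatctcAACGTGcactaaaaacga
Both matches fall downstream of the RefSeq start site of the longest transcript, and the VSP1 match lies upstream of the start that the authors' coordinates give. Of 27443 genes, 6.86% had AACGTG in such a window. A match describes the letters only.

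Expression was deposited as TPM (transcripts scaled to a fixed total per library), which divides reads by transcript length and by the library's total. TPM keeps no record of sequencing depth, so depth is unknown and no counting error can be given. Libraries of the same group had Spearman correlations of 0.986 to 0.995 across genes, and 0 pairs of columns were identical. Nothing in the labels says whether replicates came from separate plants, so p-values measure the spread between libraries, which may be technical. Of the 27655 genes, 19005 reached a TPM of 1 in at least 3 libraries and were tested, both VSP genes among them. Differences are coronatine minus mock on the log2(TPM + 1) scale from limma fitted over all 30 libraries, with Benjamini-Hochberg adjustment over the 19005 genes. A gene was counted as changed only where its adjusted p was under 0.05 both on the deposited TPM and, with the same sign, on TPM rescaled by trimmed mean of M-values (TMM) factors, because the median gene differed by -0.54 at 12 h on the deposited scale and by 0.03 after rescaling.

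VSP1 rose in coronatine leaves at 1, 3, 12 and 24 h, and its excess over mock leaves went on growing to 12 h. At 0 h VSP1 had 418, 749 and 361 TPM in coronatine leaves, against 642, 516 and 734 TPM in mock leaves. The 0 h groups overlapped and differed by -0.37 (95% confidence interval -0.87 to 0.14, limma adjusted p = 0.964). Over all 19005 genes limma called 0% at 0 h in either direction, 1012 genes had an unadjusted p under 0.05, and the authors' deposited table also has 0 calls.

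At 1 h VSP1 had 1378, 1579 and 1617 TPM in coronatine leaves, against 819, 1283 and 931 TPM in mock leaves. All 3 coronatine libraries lay above the highest mock library. The log2 difference was 0.61 (0.11 to 1.12, limma adjusted p = 0.0389), where 9.52% of all tested genes were called higher. This 1 h call depends on the processing. The call was kept in 9 of 11 alternative settings, among them the authors' deposited table. The 9 include TMM rescaling (limma adjusted p = 0.0122), which the rule for a call already requires, and the sum of both genes. It was lost without the filter on low values (adjusted p = 0.0751), with quantile normalization (adjusted p = 0.146), and without any single library of the 6 other than mock replicate 2, whose removal gave 0.80.

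At 3 h VSP1 had 5374, 5260.5 and 5912 TPM in coronatine leaves, against 823, 732 and 598 TPM in mock leaves. The lowest coronatine value was far above the highest mock value, and the mean of coronatine leaves was 7.68 times that of mock leaves. The log2 difference was 2.95 (2.45 to 3.45, limma adjusted p = 4.9e-11), where 14.2% of genes were called higher.

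At 12 h VSP1 had 17139.6, 17182 and 18332 TPM in coronatine leaves, against 785, 1453 and 1369 TPM in mock leaves. VSP1 was then the most abundant transcript, rank 1 of all genes listed, in each of the 3 coronatine libraries, against ranks 74 to 146 in mock libraries. The log2 difference was 3.92 (3.41 to 4.42, limma adjusted p = 9.2e-14), where 24.3% of genes were called higher.

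At 24 h VSP1 had 14120.3, 14742 and 11370.3 TPM in coronatine leaves, against 477, 625 and 881 TPM in mock leaves. It ranked 2, 2 and 3 in the coronatine libraries, against 134 to 223 in the mock libraries. The log2 difference was 4.38 (3.87 to 4.88, limma adjusted p = 7.8e-15), where 37.2% of genes were called higher. The mean was 13411 ± 1794 TPM in coronatine leaves and 661 ± 205 TPM in mock leaves (SD, n = 3 each), a ratio of 20.3.

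**Figure D1:**
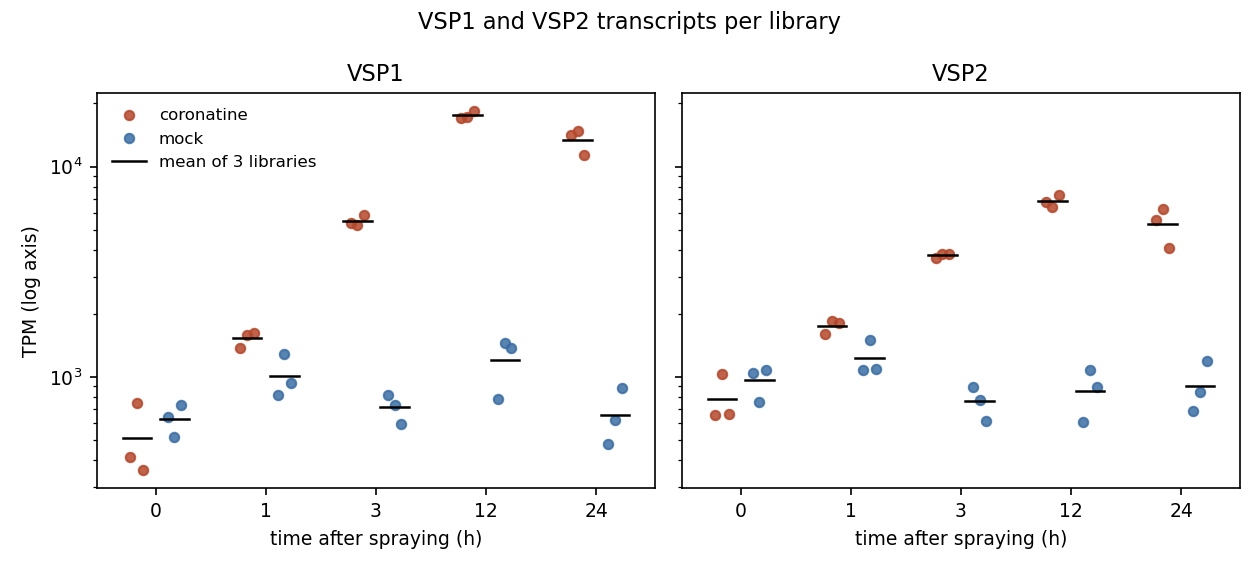
Transcript level of VSP1 and VSP2 in TPM (log axis) in each library against time after spraying in h, with coronatine libraries in red, mock libraries in blue and a bar at the mean of 3 libraries. From 1 h on the coronatine points lie above the mock points of the same time for both genes, and VSP1 reaches 17139.6 to 18332 TPM at 12 h.

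VSP2 rose at the same times but by less. At 0 h VSP2 had 655, 1028 and 667 TPM in coronatine leaves, against 1046, 759 and 1082 TPM in mock leaves, and the groups overlapped (log2 difference -0.31, limma adjusted p = 0.964). At 1 h it had 1594, 1853 and 1797 TPM in coronatine leaves, against 1080.0, 1497 and 1092 TPM in mock leaves. The 1 h groups did not overlap, and the log2 difference was 0.53 (0.08 to 0.98, limma adjusted p = 0.0455). As for VSP1, this call was kept in 9 of the same 11 alternative settings, the authors' deposited table among them. The call was lost without the filter (limma adjusted p = 0.0853) and with quantile normalization (adjusted p = 0.212). It was also lost without any single library other than mock replicate 2, whose removal gave 0.68.

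At 3 h VSP2 had 3667, 3845 and 3832 TPM in coronatine leaves, against 897, 779 and 618 TPM in mock leaves. At 12 h it had 6778, 6403 and 7335 TPM in coronatine leaves, against 607, 1075 and 899 TPM in mock leaves. At 24 h it had 5565, 6317 and 4100.0 TPM in coronatine leaves, against 689, 845 and 1193 TPM in mock leaves. The groups lay apart at each of these times, and in coronatine leaves the rank of VSP2 was 34 to 41 at 3 h, 14 to 17 at 12 h and 12 to 18 at 24 h. The log2 difference was 2.32 at 3 h (1.87 to 2.77, limma adjusted p = 5.1e-10), 3.03 at 12 h (2.58 to 3.48, adjusted p = 1.7e-12) and 2.56 at 24 h (2.12 to 3.01, adjusted p = 4.1e-11). In linear terms the mean of coronatine leaves was 4.94, 7.95 and 5.86 times that of mock leaves at 3, 12 and 24 h.

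Both genes together took a visible share of the leaf transcriptome. Their summed TPM was 2.36% to 2.57% of each coronatine library at 12 h, against 0.139% to 0.253% of each mock library. The log2 difference of the sum at 1, 3, 12 and 24 h was 0.57, 2.66, 3.61 and 3.60, with limma adjusted p-values of 0.0393, 8.2e-11, 1.0e-13 and 9.0e-14 (standard error 0.23 throughout). In the authors' deposited table the log2 fold changes at 1, 3, 12 and 24 h were 0.79, 3.49, 4.54 and 4.63 for VSP1. For VSP2 the authors' deposited table gives 0.71, 2.86, 3.66 and 2.84. On TMM-rescaled TPM the log2 differences were 0.82, 3.52, 4.63 and 4.72 for VSP1 and 0.74, 2.89, 3.74 and 2.91 for VSP2. The confidence intervals and ratios of means given above are on deposited TPM and leave out this shift with scaling. At 3 and 12 h the rescaled and the authors' values lay above the upper bounds of those intervals. These bounds were 3.45 and 4.42 for VSP1 and 2.77 and 3.48 for VSP2. At 1 and 24 h the rescaled and the authors' values lay within the intervals for both genes.

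**Figure D2:**
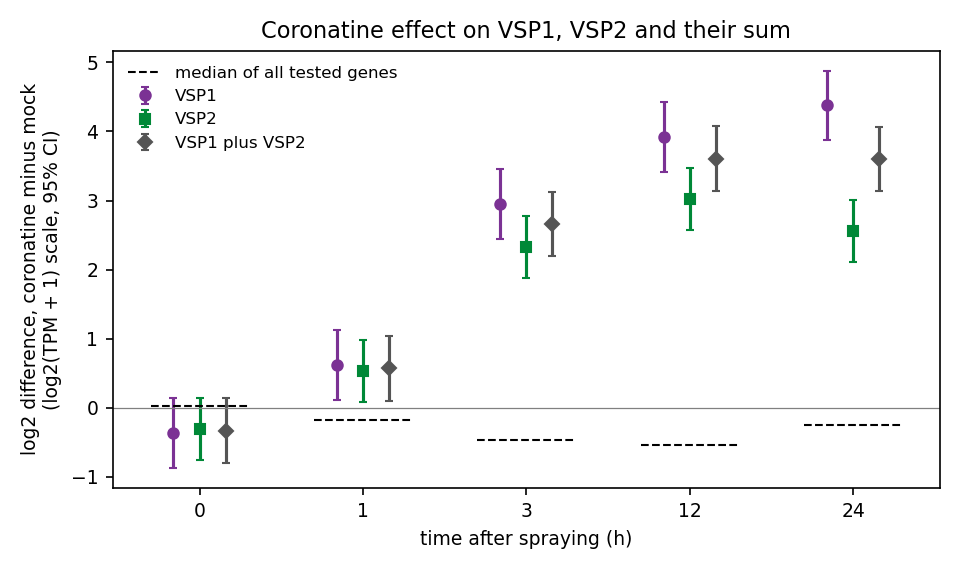
Log2 difference, coronatine minus mock, of VSP1 (circles), VSP2 (squares) and their summed TPM (diamonds) against time after spraying in h, with 95% confidence intervals from limma and a dashed line at the median of all 19005 tested genes. On deposited TPM the VSP1 and VSP2 points are close at 1 h (0.61 and 0.53) and apart at 24 h (4.38 and 2.56).

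The growth of the effect between neighbouring times was tested directly. The effect on VSP1 grew by 0.98 between 0 and 1 h, where 7.5% of genes were called in that direction, by 2.34 between 1 and 3 h (11.2%) and by 0.97 between 3 and 12 h (30%). The limma adjusted p-values were 0.0295, 3.2e-06 and 0.0167. Between 12 and 24 h the effect on VSP1 differed by 0.46 (-0.25 to 1.17) and was not called (adjusted p = 0.257), where 25.5% of genes were called higher and 15.1% lower. The effect on VSP2 grew by 0.84, 1.79 and 0.71 over the same 3 steps, with limma adjusted p-values of 0.0366, 2.4e-05 and 0.0471. Between 12 and 24 h the effect on VSP2 differed by -0.46 (-1.10 to 0.17, adjusted p = 0.199), and after TMM rescaling by -0.83 (adjusted p = 0.0261). Of the steps named as growth, the one between 1 and 3 h kept its call for both genes under every alternative run, while the step between 3 and 12 h in VSP2 lost it without 10 of the 12 single libraries and without the filter (adjusted p = 0.0887). In VSP1 that step lost its call without mock 12 h replicate 1 (0.69, adjusted p = 0.0738). The step between 0 and 1 h kept its call in 5 of 12 removals of a single library in VSP1 and in 4 of 12 in VSP2, and lost it for both genes without the filter and with quantile normalization.

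Mock leaves also differed between times. VSP1 was higher in mock leaves at 12 h, with a mean of 1202 ± 364 TPM, against 631 ± 109 TPM in mock leaves at 0 h (SD, n = 3 each). The log2 difference was 0.89 (limma adjusted p = 0.00291, and 0.0496 after TMM rescaling), where 20.5% of genes were called higher. One mock library at 12 h, replicate 1 with 785 TPM, lay well below the other 2. VSP1 was not called in mock leaves at 1 h (0.67, adjusted p = 0.0536), 3 h (0.19) or 24 h (0.04), where 11.2%, 23.2% and 0.242% of genes were called higher. VSP2 was called at none of the 4 times, with differences from mock leaves at 0 h of 0.35, -0.33, -0.18 and -0.10. All 4 contrasts share the mock libraries at 0 h. The labels give no clock time, so time after spraying and time of day cannot be told apart in these values, while each coronatine group has a mock group of its own hour.

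Ordered by mean TPM over the 10 groups, VSP1 ran from coronatine at 12 h through coronatine at 24 h, 3 h and 1 h to the mock groups, with coronatine at 0 h the lowest. The first 3 groups did not overlap with their neighbours, while coronatine at 1 h overlapped with mock at 12 h (1378 to 1617 TPM against 785 to 1453 TPM). For VSP2 the same 4 coronatine groups led, none overlapping with the next, and below them came mock at 1 h (1080.0 to 1497 TPM). Mock at 1 h overlapped with mock at 0 h, and the remaining groups of VSP2 overlapped with their neighbours, between 607 and 1193 TPM.

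The balance between the genes shifted within each library, a measure that no scaling of the library can move. Without coronatine VSP2 was mostly the more abundant of the pair, and with coronatine VSP1 overtook it. TPM is per length, so the levels of the 2 genes can be compared only as far as the transcript lengths used hold. The spliced length of VSP1 is 1074 bases in the authors' coordinates and 1318 bases in the longer RefSeq transcript. At 0 h the log2 ratio of VSP2 to VSP1 averaged 0.66 ± 0.22 in coronatine leaves and 0.61 ± 0.08 in mock leaves (SD, n = 3 each), and at 1 h it averaged 0.20 ± 0.04 in coronatine leaves and 0.28 ± 0.10 in mock leaves. By 3 h it was -0.54 ± 0.09 in coronatine leaves and 0.09 ± 0.04 in mock leaves.

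At 12 h the log2 ratio of VSP2 to VSP1 was -1.36 ± 0.06 in coronatine leaves and -0.47 ± 0.12 in mock leaves, and at 24 h it was -1.35 ± 0.12 in coronatine leaves and 0.47 ± 0.06 in mock leaves. At 3, 12 and 24 h every coronatine library was below every mock library of its time. The differences of -0.63, -0.89 and -1.81 each had an exact two-sided permutation p of 0.10, the smallest that 3 against 3 libraries can give (0.167 after adjustment over the 5 times). At 0 and 1 h the groups overlapped and the exact permutation p was 0.8 and 0.3. With labels permuted within each of the 4 times from 1 to 24 h, the mean difference of -0.86 had an exact permutation p of 3.75e-05 over 160000 arrangements. Mock leaves at 12 h were the one mock group with more VSP1 than VSP2, at 0.723 ± 0.060 VSP2 transcripts per VSP1 transcript. These ratios also depend on how reads in the stretches shared by the transcripts were assigned. The submitters' processing notes name RSEM, a tool that shares such reads out by an estimate, without giving its role here.

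**Figure D3:**
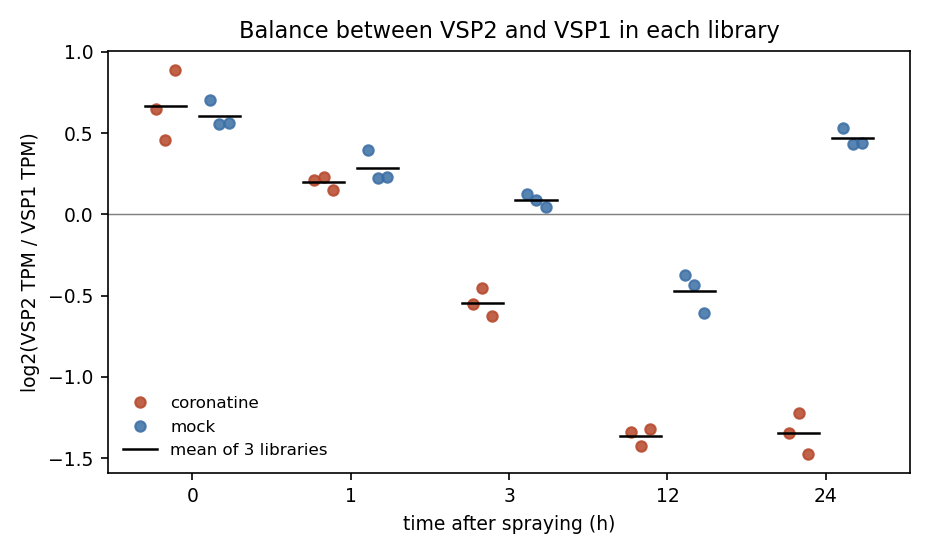
Log2 ratio of VSP2 TPM to VSP1 TPM in each library against time after spraying in h, with coronatine libraries in red, mock libraries in blue and a bar at each mean. Values above 0 mean more VSP2 than VSP1, and the coronatine means reach -1.36 at 12 h and -1.35 at 24 h while the mock mean at 24 h is 0.47.

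The genes next to the pair did not share its response in size. On the VSP2 side lie AT5G24760, annotated by the authors as a zinc-binding dehydrogenase, AT5G24750, a UDP-glycosyltransferase family gene, and AT5G24740 of unknown function, which at 12 h differed by -0.56 on deposited TPM and by 0.02 after TMM rescaling and so was not called. AT5G24760 averaged 8.85 ± 1.13 TPM in coronatine leaves and 9.37 ± 0.07 TPM in mock leaves at 12 h (SD, n = 3 each). It differed by -0.08 on deposited TPM and by 0.56 after TMM rescaling and was not called at that time. At 24 h AT5G24760 was called higher, by 0.30 (0.61 after TMM rescaling). AT5G24750 fell at 12 h, to 2.10 ± 0.33 TPM in coronatine leaves, against 4.25 ± 0.24 TPM in mock leaves. Its log2 difference was -0.77 on deposited TPM and -0.23 after TMM rescaling. On the VSP1 side AT5G24790 stayed at or below 0.17 TPM and was not tested. AT5G24800, the transcription factor gene bZIP9, was higher by 0.27 at 12 h (0.95 after TMM rescaling). AT5G24810, an ABC1 family gene, was higher by 0.68 (1.38 after TMM rescaling). AT5G24810 also rose at 24 h, where it averaged 90.4 ± 3.6 TPM in coronatine leaves and 37.4 ± 1.7 TPM in mock leaves. None of these differences at 12 h came near those of VSP2 (3.03, and 3.74 after TMM rescaling) or VSP1 (3.92, and 4.63 after TMM rescaling).

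**Figure D4:**
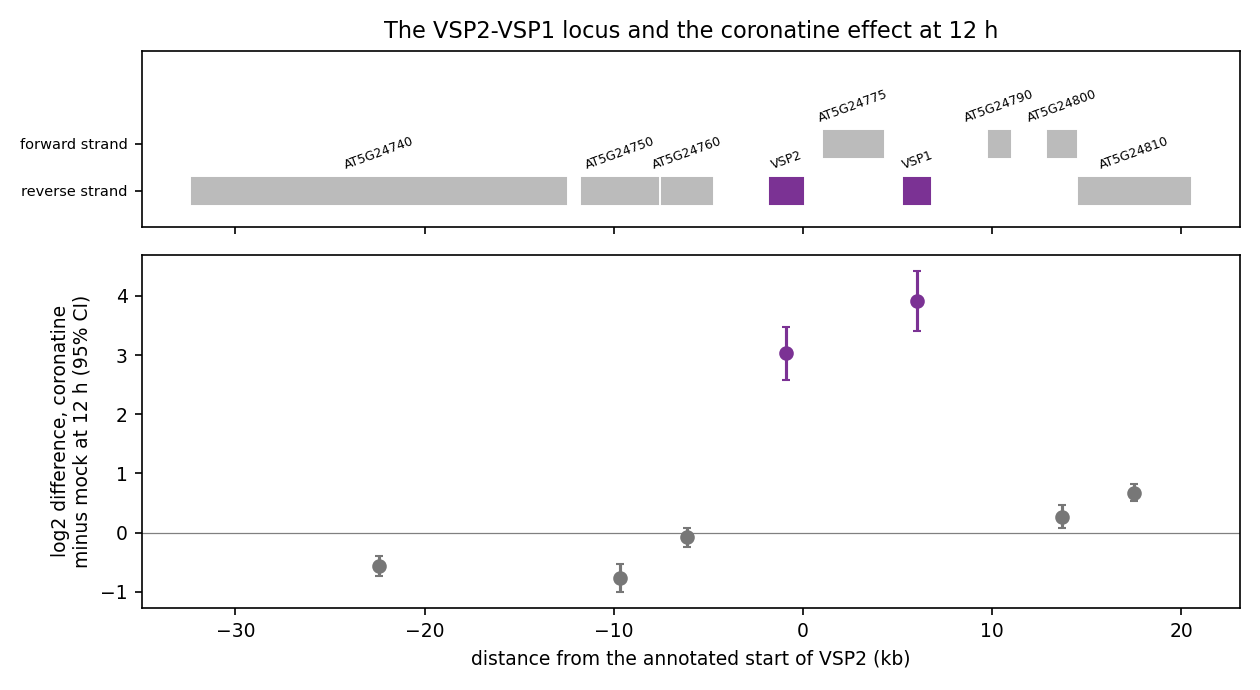
Map of the genes around VSP2 and VSP1 by strand, against distance from the annotated start of VSP2 in kb, above the log2 difference, coronatine minus mock, of each tested gene at 12 h with its 95% confidence interval. On deposited TPM, VSP2 (3.03) and VSP1 (3.92) stand above the neighbours, which lie between -0.77 and 0.68.

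Other genes known as MYC-branch or wound-response markers moved with the VSP genes. All 12 of the genes listed besides VSP1 and VSP2 were called higher at 1, 3, 12 and 24 h, and 0 of 12 at 0 h. Over all tested genes 9.52%, 14.2%, 24.3% and 37.2% were called higher at those times. The median log2 difference of the 12 genes on deposited TPM was 2.28, 3.36, 3.02 and 3.90, against -0.18, -0.46, -0.54 and -0.24 over all tested genes. After TMM rescaling the medians of the 12 genes at 3, 12 and 24 h were 3.92, 3.73 and 4.24, against -0.009, 0.032 and 0.033 over all tested genes. At 1 h VSP1 and VSP2 (0.61 and 0.53) were below the median of 2.28 on deposited TPM. They were among the smallest responses, with LOX2 (0.65), a lipoxygenase of jasmonate synthesis in chloroplasts, and JAL23 (0.36), a jacalin-like lectin. The genes that moved most by 24 h were NAC019, a NAC transcription factor downstream of MYC2, at 7.90, and TPS04, a terpene synthase of herbivore-induced volatiles, at 7.21. TAT3, a tyrosine aminotransferase classed with wound markers, averaged 4504 ± 225 TPM in coronatine leaves and 60.5 ± 4.4 TPM in mock leaves at 24 h (SD, n = 3 each).

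Among regulators of the branch, MYC2 itself rose to 240.1 ± 2.1 TPM in coronatine leaves at 1 h, against 68.2 ± 10.3 TPM in mock leaves (SD, n = 3 each). Its log2 differences at 1, 3, 12 and 24 h were 1.81, 2.45, 1.25 and 1.43. MYC3, which acts with MYC2, rose at all 4 times by 0.98, 1.18, 0.51 and 0.68, while MYC4 fell by 0.66 at 1 h, 1.37 at 3 h and 0.90 at 24 h. At 12 h MYC4 was not called (-0.81, and -0.15 after TMM rescaling). JAM1, a bHLH protein that represses MYC targets, rose by 2.37 at 1 h and 3.32 at 3 h, and its relative JAM2 rose by 1.42 and 1.84. NINJA, the adaptor between JAZ proteins and the corepressor TOPLESS, rose by 0.86 at 1 h and 1.83 at 3 h. COI1, the receptor, fell by 0.59 at 1 h and 1.36 at 3 h, and was not called at 12 h (-0.75) or 24 h (-0.24). After TMM rescaling COI1 differed by -0.08 at 12 h and by 0.08 at 24 h. Of 10 regulators tested, 5 were called higher and 3 lower at 1 h, where the shares over all genes were 9.52% and 15.1%, and 6 higher and 3 lower at 3 h (14.2% and 35.8%), so the share called lower at 3 h was near that of all genes. At 12 h 7 were called higher and 0 lower (24.3% and 41.4%), and at 24 h 8 higher and 1 lower (37.2% and 43.3%). MYC5 did not reach the filter.

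The listed ERF-branch genes were not all called higher, unlike the MYC-branch markers. Over all tested genes 9.52%, 14.2%, 24.3% and 37.2% were called higher at 1, 3, 12 and 24 h, and 15.1%, 35.8%, 41.4% and 43.3% lower. These shares need a call on both scalings and do not give the balance of the transcriptome, since TMM-rescaled TPM alone had 6723 genes higher and 6808 lower at 3 h and 8282 higher and 7870 lower at 12 h, and the authors' deposited table has 6453 higher and 7029 lower at 3 h. Of 10 listed genes, 1 was called higher and 1 lower at 1 h, 2 higher and 2 lower at 3 h, 2 higher and 5 lower at 12 h, and 2 higher and 8 lower at 24 h. At 1 and 12 h these counts were near the shares over all genes. The lower calls stood below that share at 3 h and above it at 24 h. ORA59, the transcription factor that drives PDF1.2, was at 0.163 ± 0.040 TPM in coronatine leaves at 24 h, against 83.5 ± 3.7 TPM in mock leaves (SD, n = 3 each). PDF1.2, a plant defensin, averaged 18247 ± 3032 TPM in coronatine leaves and 17742 ± 1625 TPM in mock leaves at 3 h and was not called there. At 24 h PDF1.2 averaged 419 ± 227 TPM in coronatine leaves and 10711 ± 43.9 TPM in mock leaves, a log2 difference of -4.82. ERF1, another activator of the branch, was among the genes called higher, by 2.77 at 1 h.

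The acid phosphatase relatives of the VSP genes moved in both directions. The authors' annotation names 8 other genes as HAD subfamily IIIB acid phosphatases, with coding sequences 49.5% to 55.9% identical to VSP1 or VSP2. One of them, AT2G38600, did not reach the filter. Of the 7 tested, 0 were called higher and 3 lower at 1 h, 1 higher and 3 lower at 3 h, and 3 higher and 4 lower at both 12 and 24 h. Over all tested genes 9.52%, 14.2%, 24.3% and 37.2% were called higher at 1, 3, 12 and 24 h, and 15.1%, 35.8%, 41.4% and 43.3% lower. At 3 and 24 h the counts of the relatives were near those shares. At 1 h 3 of 7 called lower stood above the 15.1% of all genes. At 12 and 24 h 0 of the 7 were left uncalled. AT5G44020 fell to 1.35 ± 0.40 TPM in coronatine leaves at 24 h, against 271.5 ± 20.9 TPM in mock leaves, and AT1G04040 to 1.67 ± 0.93 TPM in coronatine leaves, against 208.9 ± 5.6 TPM in mock leaves (SD, n = 3 each). Among them AT5G51260 had the largest rise at 24 h, with 22.1 ± 1.0 TPM in coronatine leaves and 9.34 ± 0.46 TPM in mock leaves at 24 h, a log2 difference of 1.16. All 7 had log2 differences below those of VSP1 and VSP2 at every time from 1 h on.

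**Figure D5:**
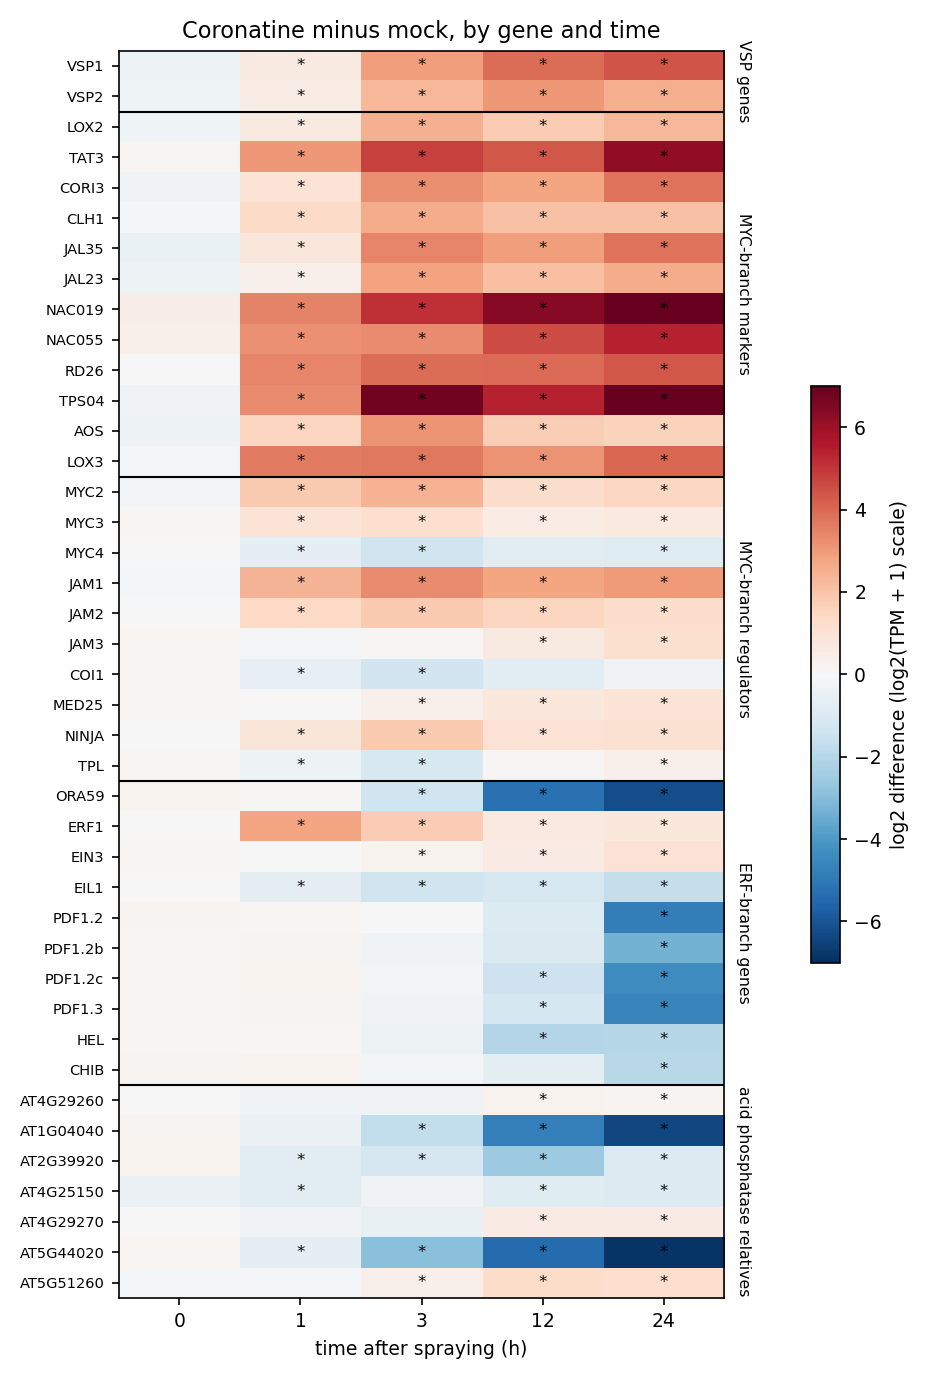
Log2 difference, coronatine minus mock, by gene and time after spraying in h for VSP1 and VSP2, MYC-branch markers, regulators of that branch, ERF-branch genes and the tested acid phosphatase relatives. Red is higher and blue lower in coronatine leaves, values past the ends of the colour bar (NAC019 at 7.90 and TPS04 at 7.21 at 24 h) take its end colour, and an asterisk marks a gene called with the same sign on both scalings.

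Genes of other proteins with roles against insects, or relatives of such genes, were listed as well. ARGAH2, an arginase that removes arginine from the insect's diet, averaged 13169 ± 563 TPM in coronatine leaves and 1274 ± 387 TPM in mock leaves at 12 h (SD, n = 3 each), a log2 difference of 3.42. NATA1, an acetyltransferase that makes N-delta-acetylornithine, rose by 3.03 at 3 h and 1.59 at 12 h. KTI4, a Kunitz trypsin inhibitor, rose late, with 728 ± 93 TPM in coronatine leaves and 1.89 ± 0.50 TPM in mock leaves at 24 h. OMR1, a threonine deaminase of isoleucine synthesis, fell by 2.72 at 12 h. WSCP, a water-soluble chlorophyll-binding protein, was listed at 0 TPM in both groups at 1, 3, 12 and 24 h. Of the 5 tested, 2 were called higher and 0 lower at 1 h, 3 higher and 1 lower at 3 h, 3 higher and 2 lower at 12 h, and 4 higher and 1 lower at 24 h. Over all genes 9.52% were called higher and 15.1% lower at 1 h, and 14.2% higher and 35.8% lower at 3 h. The shares were 24.3% higher and 41.4% lower at 12 h, and 37.2% higher and 43.3% lower at 24 h.

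VSP genes are also known to answer the phosphate supply, so 9 phosphate-starvation genes were set beside them. They gave 1 higher and 1 lower call at 1 h, 0 higher and 6 lower at 3 h, 1 higher and 3 lower at 12 h, and 6 higher and 2 lower at 24 h. Over all genes the shares called higher at 1, 3, 12 and 24 h were 9.52%, 14.2%, 24.3% and 37.2%. The shares called lower were 15.1%, 35.8%, 41.4% and 43.3%. SPX1, a phosphate sensor, was at 5.26 ± 0.55 TPM in coronatine leaves and 24.3 ± 3.4 TPM in mock leaves at 3 h (SD, n = 3 each), and at 26.7 ± 3.8 TPM in coronatine leaves and 13.9 ± 0.6 TPM in mock leaves at 24 h. PAP17, a purple acid phosphatase, was at 63.2 ± 1.9 TPM in coronatine leaves and 12.3 ± 1.1 TPM in mock leaves at 24 h. The part of phosphate supply in the VSP values was not tested.

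The genes whose pattern was most like that of VSP1 were found by the Pearson correlation of log2(TPM + 1) over the 30 libraries, among 12616 genes with at least 10 TPM in at least 3 libraries. The points share libraries and the contrast between treatments, so the values describe likeness only. The 5 closest to VSP1 were AT4G11320 (r = 0.989), annotated as a papain-type cysteine protease, PPH (0.987), the pheophytinase of chlorophyll breakdown, TPS10 (0.985), a monoterpene synthase, AT5G26260 (0.984), a TRAF-like gene, and AT4G11310 (0.983), another cysteine protease. VSP2 came in at rank 18 (0.976). For VSP2 the 5 closest were AT4G11320 (0.985), AT3G62860 (0.984), annotated as an alpha/beta hydrolase, VSP1 (0.976), AT4G11310 (0.974) and ARGAH2 (0.972). AT4G11320 averaged 2214 ± 34 TPM in coronatine leaves and 165 ± 40 TPM in mock leaves at 12 h (SD, n = 3 each). PPH averaged 818 ± 12 TPM in coronatine leaves and 79.0 ± 13 TPM in mock leaves at 12 h.

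Marker genes of leaf cells moved in the same libraries. Genes that define leaf tissue were abundant at 0 h, when the summed level of RBCS1A, LHCB1.1 and CA1 was 30452 to 31059 TPM in coronatine leaves and 31380 to 32811 TPM in mock leaves. The 5 flower genes AP1, AP3, PI, AG and SEP3 summed to at most 0.97 TPM in any library, and VSP genes are known to be high in flowers. At 24 h the leaf sum was 1805 to 3056 TPM in coronatine leaves and 32883 to 34112 TPM in mock leaves, with 3 of 3 genes called lower. At 3 h, when 0 of the 3 were called, it was 22187 to 25780 TPM in coronatine leaves and 26326 to 29295 TPM in mock leaves. The epidermis genes ATML1, PDF1, FDH and CER5 summed to 19.1 to 26.8 TPM in coronatine leaves and 430 to 450 TPM in mock leaves at 24 h, and 4 of 4 were called lower at 1, 3, 12 and 24 h, where 15.1%, 35.8%, 41.4% and 43.3% of all genes were. The phloem genes were SUC2, APL and SEOR1. At 24 h they summed to 157 to 163 TPM in coronatine leaves and 176 to 181 TPM in mock leaves. Of the 3, 1 (APL) was called higher at 24 h, where 37.2% of all genes were. At 3 h 1 (SUC2) was called lower, where 35.8% were, and at 12 h 1 was called higher (24.3%). The other 2 were not called at each of these times. The part of these marker changes in the VSP values was not tested. In whole leaves, fewer cells of a type and less RNA per cell cannot be told apart.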

How the data were processed

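RNA was measured in 30 whole-leaf libraries of jazD, with 3 per group of treatment and time as titled. Per the labels' protocols, total RNA with an integrity number of at least 6.5 was sequenced on a DNBseq instrument. The authors deposited gene-level TPM for 27655 genes. Per the submitters' processing notes, RSEM 1.3.3, DESeq2 (version written there as 3.12) and TAIR10 were used. The aligner and any strand setting are not given in the sources used here. Per the file headers, the authors' deposited comparison tables hold a base mean (a normalised signal), a log2 fold change with its standard error, a score (the test statistic) and a raw and an adjusted p-value. TPM is not a count, so log2(TPM + 1) was fitted in R 4.3.3 by limma 3.58.1, using a mean-variance trend and 1 mean per treatment and time, on the 19005 genes (68.7%) with at least 1 TPM in at least 3 libraries. The log2 scale with a pseudocount of 1 understates changes of low genes. TMM factors were computed with trims of 30% and 5%. The VSP2 to VSP1 ratio used exact permutation tests. The procedure was tested on simulated data.

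The members, lists, tests and alternatives were chosen with earlier results of these data known. Named genes were VSP1 and VSP2, the MYC regulators and acid phosphatase relatives, up to 3 genes called each way and 1 or 2 not called from each other list, the 3 neighbouring genes on each side, and the 5 most alike genes. The extra regulatory window before the start codon was chosen after its promoters were seen. Promoter letters were read from RefSeq's TAIR10.1 by that annotation's own coordinates, and both VSP genes matched by locus. Gene coordinates are the authors' TAIR10. Protein sequences were not used here.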

Additional observations from a re-analysis of the deposited data

Results flagged for a closer look

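The effect of coronatine differed between neighbouring times for both genes, by a limma test of the difference itself. The log2 effect on VSP1 grew by 0.98 between 0 and 1 h, by 2.34 between 1 and 3 h and by 0.97 between 3 and 12 h. The log2 effect on VSP2 grew by 0.84, 1.79 and 0.71 over the same steps. Each group has 3 libraries, too few for a test of single libraries that stand apart.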

How the results depend on the processing

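The differences at 3, 12 and 24 h and the step between 1 and 3 h kept their direction and their call for both genes under pseudocounts of 0.1 and 5, no filter, TMM and quantile scaling, the replicate block, and removal of any 1 library. With a filter of 5 TPM the differences at 1, 3, 12 and 24 h also kept their direction and call. They kept both in fits to the 6 libraries of each time and in the authors' table. These settings were not run for the steps between times. Without the filter on low values the differences kept their sizes, but the 1 h difference of VSP1 (0.61, limma adjusted p = 0.0751) and VSP2 (0.53), the step from 0 to 1 h in VSP1 (0.98) and VSP2 (0.84) and the step from 3 to 12 h in VSP2 (0.71) were no longer called. With quantile normalization the 1 h difference was 0.46 in VSP1 and 0.34 in VSP2, and the step from 0 to 1 h was 0.83 and 0.56, none called. With TMM factors the step from 12 to 24 h in VSP2 was -0.83 and called. The difference of VSP1 between mock leaves at 1 h and 0 h became a call with a pseudocount of 5 (0.67), with quantile normalization (0.68) and with the replicate block (0.67). Calls over all genes at 0 h numbered 6 without the filter and 1 with the replicate block, against 0, and at 1 h 6158 with TMM factors, against 9733. Why these calls changed was not tested.

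Leaving out 1 library at a time gave 1 h differences of 0.48 to 0.80 in VSP1 and 0.45 to 0.68 in VSP2, with 1 of 6 called in each. The step from 0 to 1 h ran from 0.77 to 1.3 in VSP1 (5 of 12 called) and from 0.73 to 1.05 in VSP2 (4 of 12). The step from 3 to 12 h ran from 0.69 to 1.13 in VSP1, lost only without mock 12 h replicate 1 (adjusted p = 0.0738), and from 0.47 to 0.89 in VSP2 (2 of 12 called). In mock leaves against 0 h, VSP1 ran from 0.48 to 0.81 at 1 h (2 of 6 called) and from -0.19 to 0.25 at 24 h, with -0.10 without mock 0 h replicate 2 and -0.19 without mock 24 h replicate 3. VSP2 ran from -0.36 to 0.049 at 12 h, with 0.049 without mock 12 h replicate 1, and from -0.32 to 0.079 at 24 h, with 0.079 without mock 24 h replicate 1, none called. The 0 h difference in the log2 ratio of VSP2 to VSP1 ran from -0.054, without coronatine 0 h replicate 3, to 0.16.

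The labels do not say that libraries with the same replicate number share more than that number. Their deviations correlated at -0.25 to 0.12 (median -0.03), 2 of 15 pairs exceeded 0.1, and 3 of 15 correlated best with their own number. Pairs with different numbers correlated at -0.23 to 0.39 (median 0.03). Such correlations cannot show whether libraries shared plants, trays or days. With the replicate block the VSP1 difference was 0.61 at 1 h (limma adjusted p = 0.0337) and 4.38 at 24 h, and among the VSP results the block changed no call other than that of VSP1 in mock leaves at 1 h. TPM keeps no depth, so the precision that depth gives each value is unknown.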
